A study of Mus musculus with 11 samples.

Results

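The comparison set mice given OTV:Malat1 against mice given ATV:BACE1, in single nuclei of the brain, within the glial and vascular cell classes. All libraries with either label were taken, 3 of each, which is 6 of the 11 libraries of the series. They hold 63027 of its 110304 nuclei, and 18385 of the 63027 carry a glial or vascular class name in the deposited metadata. OTV:Malat1 is a molecule that binds the transferrin receptor (TfR) and carries an antisense oligonucleotide (ASO) against Malat1, given at 60 mg/kg. ATV:BACE1 also binds the TfR, carries no ASO and, as its name says, is directed at BACE1, so it is a receptor-binding control and not an untreated one. It was given at 57 mg/kg per its label. Every mouse received 4 weekly intravenous doses, with the brain collected 72 h later. All 6 are labelled homozygous for a human TfR knock-in (hTfR KI HOM), whereas the metadata give the strain as C57BL/6J. The labels name a posterior brain region and the metadata the cortex. Replicate 1 of both groups was female and 2.33 months old, replicate 4 male and 2.57 months old, and replicate 5 male and 2.33 months old. Deposited batch numbers follow these replicate numbers, so libraries were compared in pairs, and batch, sex and age cannot be told apart. Nothing in the labels says how animals relate to libraries beyond this, so p-values measure the spread between libraries. The main fits take that spread from all 11 libraries of the 4 groups, and the permutation tests from the 6 compared here.

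Malat1 is an abundant long non-coding RNA that stays in the nucleus, near the speckles that hold splicing factors. An ASO with a DNA core pairs with its target RNA and lets the nuclear enzyme RNase H1 cut it, so an ASO against Malat1 acts where the nuclei sequenced here hold the RNA. The TfR brings iron-loaded transferrin into cells and lies on the luminal side of brain capillaries, which is why TfR-binding molecules are used to carry cargo across the blood-brain barrier. Oligodendrocytes wrap axons in myelin, astrocytes clear glutamate and potassium, microglia are the resident immune cells, and endothelium, pericytes and leptomeningeal cells form the vessels and coverings of the brain.

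The 6 libraries held 33301054 to 43972886 unique molecular identifiers (UMIs, each 1 captured RNA molecule), from 7546 to 13840 nuclei with a median of 2205 to 3666 UMIs. OTV:Malat1 replicate 5 stood apart, with the most nuclei, the lowest median and the highest neuronal share, 80.9% against 63.2% to 75.3% in the other 5. Of 62583 cell barcodes in the 6 libraries, 443 (0.708%) occurred in more than 1. No difference in class size was called: 0 of 10 classes passed a test of nuclei per library (edgeR quasi-likelihood, adjusted p 0.968 in each), and 0 had an unadjusted p under 0.05. Exact two-sided permutation tests of the shares gave p from 0.5 to 1 (n = 3 against 3, where 0.1 is the smallest p possible). Without OTV:Malat1 replicate 5, 2 classes were called, which are not named here. In the full set, microglia were at 85, 100 and 60 nuclei in the controls (replicates 1, 4 and 5) against 202, 67 and 74. Their shares of the library were 0.740%, 1.01% and 0.621% against 1.91%, 0.888% and 0.535%, higher with OTV:Malat1 in replicate 1 only.

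Markers fitted the deposited names of oligodendrocytes, astrocytes, microglia, vascular endothelium and leptomeningeal cells, whose own 7 markers took more UMIs than those of any other class in each library. They went against 3 names. In the class named Pericytes the endothelial markers held 0.988% to 1.29% of UMIs and the pericyte markers 0.635% to 0.713%. The class named vascular smooth muscle had 0.432% to 0.885% on pericyte markers and 0.0194% to 0.48% on smooth muscle markers. Choroid plexus epithelium markers were the largest set in the class named Glia (0.929% to 1.17%), with neuronal markers at 0.514% to 0.779% and ependymal markers at 0.185% to 0.391%. These 3 are therefore called by their deposited names only.

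Malat1, the targeted RNA (chromosome 19, 5795690 to 5802672, minus strand, mm10, annotated as a long intergenic non-coding RNA), was lower in all 7 classes that could be tested and passed the adjusted threshold in 5. Of the oligodendrocyte UMIs it made up 8.23%, 9.43% and 9.46% in the controls (replicates 1, 4 and 5, an order kept below) and 1.85%, 1.52% and 2.03% with OTV:Malat1. The groups were far apart, and the OTV:Malat1 mean was 19.9% of the control mean. In vascular endothelium the shares were 5.98%, 6.06% and 6.68% against 1.93%, 1.41% and 2.16%, and the mean was 29.4% of control. Astrocytes had 8.80%, 10.6% and 10.96% against 3.81%, 3.25% and 3.92% (36.2% of control). Their pairs differed more than those of oligodendrocytes, from 30.6% of control in replicate 4 to 43.3% in replicate 1. Microglia had 4.67%, 5.78% and 6.10% against 2.90%, 2.82% and 3.17% (53.8% of control). The class named Pericytes had 7.70%, 7.48% and 7.88% against 4.62%, 3.50% and 5.34% (58.4% of control). No library of the control group overlapped one of the OTV:Malat1 group in any of these 5 classes.

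The remaining classes retained more of it. In the class named Glia, Malat1 took 7.11%, 7.27% and 8.90% against 5.62%, 5.00% and 6.12%, or 71.9% of control. Leptomeningeal cells had 8.76%, 8.56% and 9.46% against 7.70%, 6.55% and 7.38%, or 80.8% of control, and again did not overlap. Perivascular macrophages, with 5 to 21 nuclei in a library, retained 67.2%, and the class named vascular smooth muscle, with 11 to 48 nuclei, 86.7%; in both the groups overlapped. Neurons, given for reference, retained 63.3%.

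**Figure D1:**
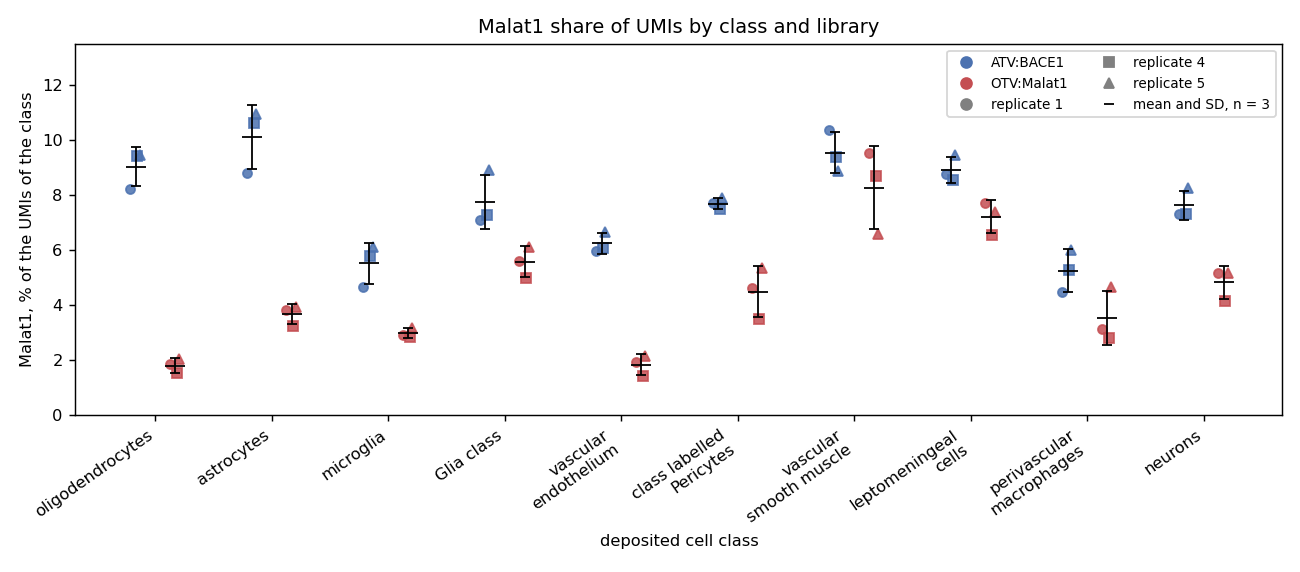
Malat1 as a percent of the UMIs of each deposited class (y axis, linear from 0) in the 3 ATV:BACE1 and 3 OTV:Malat1 libraries; point shapes mark replicates, and bars give the mean and SD. Groups lie farthest apart in oligodendrocytes and overlap in perivascular macrophages and the class named vascular smooth muscle.

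In the fit across all genes (edgeR quasi-likelihood with the batch block, Benjamini-Hochberg adjustment within a class), the log2 change of Malat1 was -2.44 in oligodendrocytes (SE 0.115, adjusted p 2.34e-17), -1.85 in vascular endothelium (SE 0.116, adjusted p 2.97e-14) and -1.55 in astrocytes (SE 0.157, adjusted p 3.59e-07). It was -0.92 in microglia (SE 0.0971, adjusted p 2.46e-09) and -0.83 in the class named Pericytes (SE 0.136, adjusted p 0.00376). In leptomeningeal cells it was -0.33 (SE 0.0950, adjusted p 0.996) and in the class named Glia -0.50 (SE 0.186, adjusted p 0.465), neither of which passed. Exact two-sided permutation tests of the shares gave 0.1, the smallest p possible, in the 7 tested classes. The astrocyte call was lost without the block and with the 6 libraries alone, at the same size of change. The Pericytes call was lost without the block or without replicate 4 of either group. Whether classes differ in their loss was not tested here.

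Beyond Malat1, 4 gene and class pairs passed the threshold: 1 higher (Sgk1 in oligodendrocytes) and 3 lower (Asic2 in microglia, Wdr17 and Luzp2 in vascular endothelium). Malat1 included, the genes called were 2 of 12362 in oligodendrocytes (0.0162%), 1 of 14041 in astrocytes (0.00712%), 2 of 3400 in microglia (0.0588%) and 3 of 4449 in vascular endothelium (0.0674%). They were 1 of 6189 in the class named Pericytes (0.0162%), 0 of 10228 in the class named Glia (0%) and 0 of 6529 in leptomeningeal cells (0%). In neurons 1 of 20719 genes (0.00483%) was called, Malat1. DESeq2 called Malat1 in the same 5 classes and none of the other 4 pairs. In the class named Glia 782 genes had an unadjusted p under 0.05, and in leptomeningeal cells 291.

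Sgk1, the serum- and glucocorticoid-regulated kinase, acts on ion channels and transporters and is switched on by steroid hormones and cell stress. The gene lies on chromosome 10, from 21882184 to 21999903 on the plus strand (mm10). Of the 20 genes listed here as glucocorticoid-responsive, 16 were matched to RefSeq promoter windows of 300 bases (250 before to 50 after a transcript's start, GRCm38.p6). The palindrome GAACANNNTGTTC, a sequence that steroid receptors bind, reads the same on both strands, and it was found in 1 of the 26 windows of these genes, a window of Sgk1. Sgk1 has 6 windows, for its several start sites. Over all 32851 windows it was in 19 (0.0578%). The window is printed because Sgk1 was the gene called higher, with the match, bases 63 to 75 of the window, in capitals:
Sgk1, chr10:21993640-21993939, plus strand: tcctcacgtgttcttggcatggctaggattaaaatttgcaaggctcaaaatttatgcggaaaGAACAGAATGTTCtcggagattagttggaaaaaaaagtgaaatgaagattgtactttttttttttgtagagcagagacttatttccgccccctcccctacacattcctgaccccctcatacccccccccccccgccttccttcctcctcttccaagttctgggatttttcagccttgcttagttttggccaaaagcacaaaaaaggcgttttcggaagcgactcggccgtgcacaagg
A match describes the letters of the window and shows no binding.

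In oligodendrocytes Sgk1 stood at 73.4, 99.8 and 61.7 TMM-scaled CPM (UMI counts of a class brought to a common library total) in the controls. With OTV:Malat1 it stood at 155, 146 and 185. All 3 OTV:Malat1 libraries were above all 3 controls, and the log2 change was 1.08 (SE 0.186, adjusted p 0.00960). The UMIs were spread over many nuclei: 119 of 1648, 108 of 1349 and 56 of 1004 control nuclei had at least 1, against 280 of 1648, 167 of 1064 and 194 of 1298 in OTV:Malat1, and no nucleus had more than 5. With called doublets left out the log2 change was 1.16 (adjusted p 0.00835). The call was lost without the block (log2 change 1.04, adjusted p 1.00), under DESeq2 and under edgeR's legacy robust fit, and without ATV:BACE1 replicate 1 or 4 or OTV:Malat1 replicate 1, with log2 changes of 1.01 to 1.13. In the other libraries of the fit, in CPM without TMM scaling, Sgk1 was at 97.8, 182 and 62.9 in nonTV:Malat1 replicates 1, 4 and 5 and at 173 and 201 in the 2 libraries of free Malat1 ASO. On that scale the controls were at 73.6, 90.0 and 61.1 and OTV:Malat1 at 160, 146 and 199, so nonTV:Malat1 replicates 1 and 4 and both libraries of free ASO were above the controls as well.

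**Figure D2:**
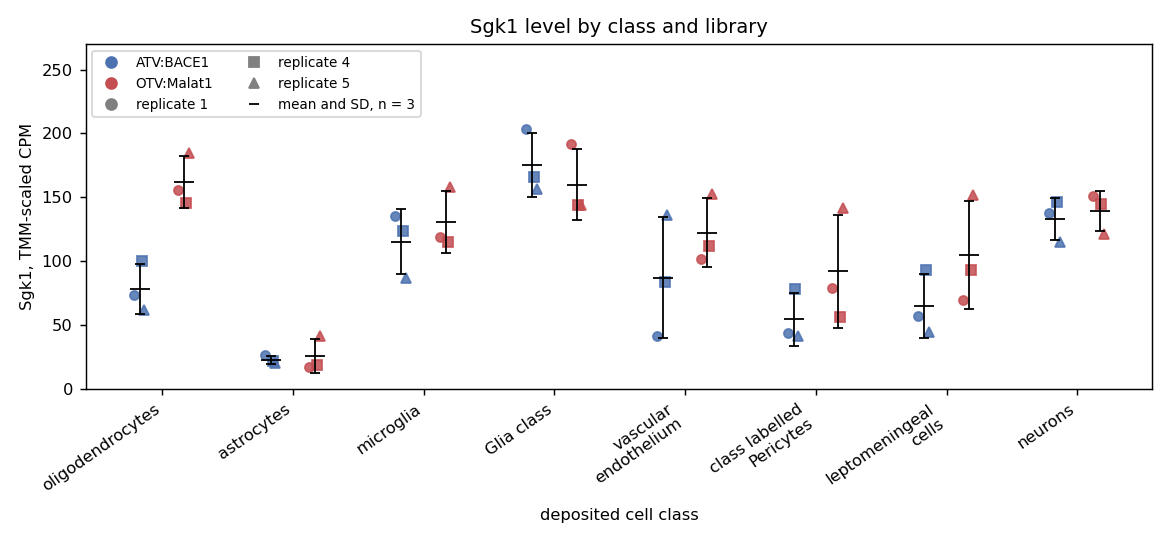
Sgk1 level in TMM-scaled CPM (y axis) by deposited class in the 6 libraries, with replicates by shape and bars for the mean and SD. The groups are apart in oligodendrocytes and overlap in the other 7 classes shown.

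Sgk1 did not pass the test in any other class. Its log2 change was 0.67 in the class named Pericytes (SE 0.399), 0.54 in vascular endothelium (SE 0.407), 0.52 in leptomeningeal cells (SE 0.332), 0.14 in microglia (SE 0.432), -0.04 in astrocytes (SE 0.227) and -0.14 in the class named Glia (SE 0.191). Whether oligodendrocytes differ from these classes was not tested.

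The glucocorticoid-responsive genes, with the already called Sgk1 among them, were examined as a list. The list was described by how many members had an unadjusted p under 0.05, which is not a call. In oligodendrocytes 3 of 15 tested members were higher (all genes, 1.8%) and 0 lower (all genes, 1.55%), with a median log2 change of 0.10. They were Sgk1, Ddit4, an inhibitor of mTOR signalling (24.1, 29.2 and 26.4 CPM against 41.4, 29.9 and 42.8), and Per1, a clock gene (19.4, 23.5 and 13.7 against 27.9, 26.1 and 22.2). The count was 1 of 15 without ATV:BACE1 replicate 1 (median 0.06) and under DESeq2, and 1 higher and 1 lower of 14 without OTV:Malat1 replicate 1 (median 0.02). Without called doublets Sgk1 and Ddit4 kept an unadjusted p under 0.05 in oligodendrocytes, and Per1 did not (0.0677). In leptomeningeal cells 3 of 13 were higher (all genes, 2.36%) and 0 lower (2.1%), 12 of 13 log2 changes were positive, and the median was 0.32. Among them Dusp1, a phosphatase that turns off MAP kinases, had 26.8, 13.3 and 12.7 CPM against 48.3, 51.7 and 70.8, without overlap, and Fkbp5, a co-chaperone of the glucocorticoid receptor, had 278, 246 and 165 against 396, 367 and 172, with overlap. Both missed the adjusted threshold (0.996 each). The leptomeningeal count was 1 of 13 without the block and under DESeq2, 5 of 12 without called doublets and 0 of 10 with a prediction score of at least 0.8. In astrocytes 4 of 18 were higher (all genes, 2.09%) and 0 lower (1.74%): Ddit4, Per1, Tsc22d3, which encodes the glucocorticoid-induced leucine zipper, and the metallothionein Mt1 (524, 364 and 403 against 560, 455 and 540). The median there was 0.04. The count was 0 of 18 without the block and without ATV:BACE1 replicate 4, and 1 of 18 under DESeq2, without replicate 1 or 5 of OTV:Malat1, and without called doublets, where Mt1 alone kept an unadjusted p under 0.05. The receptors had log2 changes in oligodendrocytes of -0.01 for Nr3c1 (SE 0.115), the glucocorticoid receptor, and 0.02 for Nr3c2 (SE 0.119), the mineralocorticoid receptor. Of the immediate-early list, Fos and Nr4a1, transcription factors induced by stimulation, had unadjusted p under 0.05 in both oligodendrocytes and astrocytes. In oligodendrocytes 2 of 19 members were higher (all genes, 1.8%) and 0 lower (1.55%). In astrocytes 3 of 22, with Ier3, were higher (all genes, 2.09%) and 0 lower (1.74%). Fos in oligodendrocytes was at 4.72, 3.24 and 3.92 CPM against 12.6, 4.48 and 14.01, with overlap, a log2 change of 1.35 (SE 0.394, adjusted p 1.00). The control libraries held 1031056 to 1901182 UMIs in this class, so their Fos values rest on few UMIs.

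Myelin genes of oligodendrocytes showed no call. Of 24 measured, 0 passed either threshold, and their median log2 change was -0.01 against 0.00 for all genes. Mbp, the major myelin protein of the inner membrane face, was at 3791, 4391 and 3656 CPM against 4339, 4086 and 3729 (log2 change 0.04, SE 0.0964). Of 25 lineage genes 3 were lower at an unadjusted p under 0.05 (all genes, 1.55%) and 0 higher (all genes, 1.8%): Sox10, the transcription factor of the lineage (379, 269 and 345 CPM against 332, 220 and 221, log2 change -0.36), Nkx2-2 (-0.49) and the protease Klk6 (-0.68). None of them passed the adjusted threshold. The gene nearest to a call was Cemip2, a hyaluronan-degrading membrane protein, at 13.6, 22.7 and 13.7 CPM against 46.4, 44.8 and 26.4 (log2 change 1.29, SE 0.256, adjusted p 0.0601). Its UMIs sat in few nuclei, 19 of 1648, 14 of 1349 and 11 of 1004 against 24 of 1648, 19 of 1064 and 16 of 1298, with up to 19 UMIs in 1 nucleus. Without called doublets it passed (log2 change 1.59, adjusted p 0.00859). In the class named Glia the log2 change of Cemip2 was 1.00 (SE 0.337, adjusted p 0.425). Bfsp2 was the next higher (log2 change 0.57), and Gm31152 (-1.15) and the tubulin Tubb4a (-0.37) the nearest lower, with adjusted p of 0.586 or more.

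Astrocyte genes for glutamate uptake, water transport and junctions showed no call, with 0 of 25 past either threshold and a median log2 change of -0.01. The glutamate transporter Slc1a2 was at 4938, 7101 and 5081 CPM against 6567, 6478 and 4564. Of 16 reactivity genes 1 was higher at an unadjusted p under 0.05 (all genes, 2.09%) and 1 lower (all genes, 1.74%). They were Cp, the copper-carrying ferroxidase (log2 change 0.47), and Osmr, the oncostatin M receptor (-0.96). Without called doublets Cp was at 0.30 with an unadjusted p of 0.232. The nearest to a call after Malat1 was Dnah3, a dynein heavy chain of motile cilia, at 1.68, 3.91 and 8.31 CPM against 7.69, 12.4 and 17.7, with overlap (log2 change 1.57, SE 0.356, adjusted p 0.764). The control libraries held 1195672 to 2318632 UMIs in this class, so their Dnah3 values rest on few UMIs.

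Microglia had the fewest testable genes. The homeostatic genes, which mark resting microglia, showed no call, with 0 of 22 past either threshold and a median log2 change of 0.02. Of 12 genes of activated microglia 0 passed either threshold, and their median was -0.15. Inpp5d, a phosphatase that restrains immune receptors, was at 2036, 2104 and 1994 CPM against 2648, 2118 and 1407. Apoe, a lipid carrier that microglia make when activated, was at 1855, 941 and 1387 against 1293, 1248 and 1407. At an unadjusted p under 0.05, 1.74% of all microglial genes were higher and 2.09% lower.

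The gene called lower in microglia, Asic2, encodes an acid-sensing sodium channel of neurons (chromosome 11, 80880169 to 81968457, minus strand). Its level was 106, 1077 and 520 CPM against 50.8, 164 and 211. The groups overlapped, and the log2 change was -1.96 (SE 0.349, adjusted p 0.00138). Without TMM scaling Asic2 was at 78.1, 782 and 373 CPM in the controls and 38.6, 124 and 153 in OTV:Malat1. It was at 85.4, 91.4 and 124 in nonTV:Malat1 and at 18.8 and 61.5 with free Malat1 ASO. Control replicates 4 and 5 were thus above every other library. In ATV:BACE1 replicate 4 the class held 87 UMIs of Asic2, of which 69 were in nuclei called as doublets and 37 in a single nucleus. Without called doublets the log2 change was -1.47 (adjusted p 0.997), and without that library -1.15 (adjusted p 1.00). The call was also lost without the block, under DESeq2, without OTV:Malat1 replicate 4 and with a prediction score of at least 0.8, so that 7 alternatives in all lost it (adjusted p 0.111 to 1.00). In neurons Asic2 was at 1581 to 1855 CPM without TMM scaling in the 6 libraries. Tenm3, a neuronal adhesion protein, showed a like pattern short of the threshold (90.5, 359 and 498 against 22.6, 98.5 and 123, log2 change -2.09, adjusted p 0.0868), with 23 of its 29 UMIs in ATV:BACE1 replicate 4 in called doublets. The neuronal list went both ways in microglia: 7 of 17 members had a positive log2 change, and the median was -0.05. At an unadjusted p under 0.05, 2 (Meg3 and Dlg2) were lower (all genes, 2.09%) and 0 higher (all genes, 1.74%). Without called doublets neither was: Meg3 was at 0.06 (unadjusted p 0.832) and Dlg2 at -0.34 (unadjusted p 0.139).

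In vascular endothelium no barrier gene was called. Of 29 measured, 0 passed either threshold, and the median log2 change was 0.06 against 0.01 for all genes. Cldn5, the tight junction protein, was at 2643, 2981 and 3166 CPM against 1992, 2950 and 2901, and Slco1a4, an organic anion transporter, at 3320, 3758 and 2758 against 3820, 4420 and 3270. Tfrc, the mouse transferrin receptor gene, was at 297, 546 and 345 against 337, 415 and 280, with overlap and a log2 change of -0.13 (SE 0.255). Among 20 growth factor and zonation genes 1 was higher at an unadjusted p under 0.05 (all genes, 2.67%) and 0 lower (2.94%). This was Vcam1, the adhesion molecule that inflamed vessels show to leukocytes. It was at 33.0, 21.0 and 10.4 CPM against 102, 224 and 25.4, with overlap (log2 change 2.01, SE 0.793, adjusted p 0.859). The 3 control libraries held 60084 to 151859 UMIs in this class, so the low control values of Vcam1 rest on few UMIs. Without called doublets the unadjusted p of Vcam1 was 0.0591. Nearest to a call among higher genes were Prkg1, the cGMP-dependent kinase (537, 861 and 637 against 1396, 1615 and 738, log2 change 0.86, adjusted p 0.141), Ppp4r3b (1.35) and the phosphodiesterase Pde7b (0.81).

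Both genes called lower in endothelium stood far higher in astrocytes, and Wdr17 also in the class named Glia (2008, 3998 and 3774 CPM in the controls). Wdr17 (chromosome 8, 54629055 to 54887184, minus strand) was at 347, 189 and 199 CPM against 47.1, 67.3 and 89.1 (log2 change -1.97, SE 0.386, adjusted p 0.0244). Luzp2 (chromosome 7, 54835498 to 55268885, plus strand) was at 314, 147 and 167 against 39.2, 78.5 and 50.9 (log2 change -1.97, SE 0.415, adjusted p 0.0492). Neither overlapped between the groups. Without TMM scaling, endothelial Wdr17 was at 277, 150 and 155 CPM in the controls. It was at 92.9, 138 and 130 in nonTV:Malat1 and at 35.2 and 77.0 with free Malat1 ASO. Luzp2 was at 250, 117 and 131 in the controls, 92.9, 27.5 and 107 in nonTV:Malat1, and 49.2 and 38.5 with free ASO. The controls were thus above every other library for both genes. In astrocytes of the 6 libraries, without TMM scaling, Wdr17 stood at 2324 to 4306 CPM and Luzp2 at 2148 to 3585. The endothelial counts were few, 42, 9 and 19 UMIs of Wdr17 against 6, 6 and 7, and 27 of the 42 in ATV:BACE1 replicate 1 came from called doublets. For Luzp2 they were 38, 7 and 16 against 5, 7 and 4, with 22 of the 38 from called doublets. Without called doublets the log2 changes were -1.36 (adjusted p 0.995) and -1.77 (adjusted p 0.437), and without ATV:BACE1 replicate 1 they were -1.30 (adjusted p 0.995) and -1.50 (adjusted p 0.995). Both calls were also lost under DESeq2 and without OTV:Malat1 replicate 1. The Luzp2 call was lost in 11 alternatives in all (adjusted p 0.0541 to 1.00), among them no block, total counts in place of TMM, Malat1 left out of library sizes, no nuclei under 1000 UMIs, and without ATV:BACE1 replicate 4 or OTV:Malat1 replicate 5. Gpc5, an astrocyte proteoglycan, was at 702, 294 and 272 against 31.4, 135 and 216 (adjusted p 0.141), with 51 of 85 UMIs in that control library in called doublets. The 7 astrocyte markers together took 0.151%, 0.0782% and 0.0884% of endothelial UMIs in the controls and 0.0626%, 0.0788% and 0.0915% in OTV:Malat1, and 0 of the 7 were at 0 over the 6 libraries.

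Of 17 neuronal genes measured in endothelium, 5 were lower at an unadjusted p under 0.05 (all genes, 2.94%) and 0 higher (all genes, 2.67%), with a median log2 change of -0.36, but 2 of 17 were lower both without called doublets, where the median was -0.03, and without ATV:BACE1 replicate 1, where it was 0.05. Kcnip4, a potassium channel partner, was at 628, 567 and 763 CPM against 180, 471 and 344 (log2 change -1.09, adjusted p 0.141). The 7 neuronal markers took 0.207%, 0.191% and 0.237% of endothelial UMIs against 0.138%, 0.219% and 0.188%. Beyond the doublet values given, the part of other cells' RNA in these results was not tested.

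**Figure D3:**
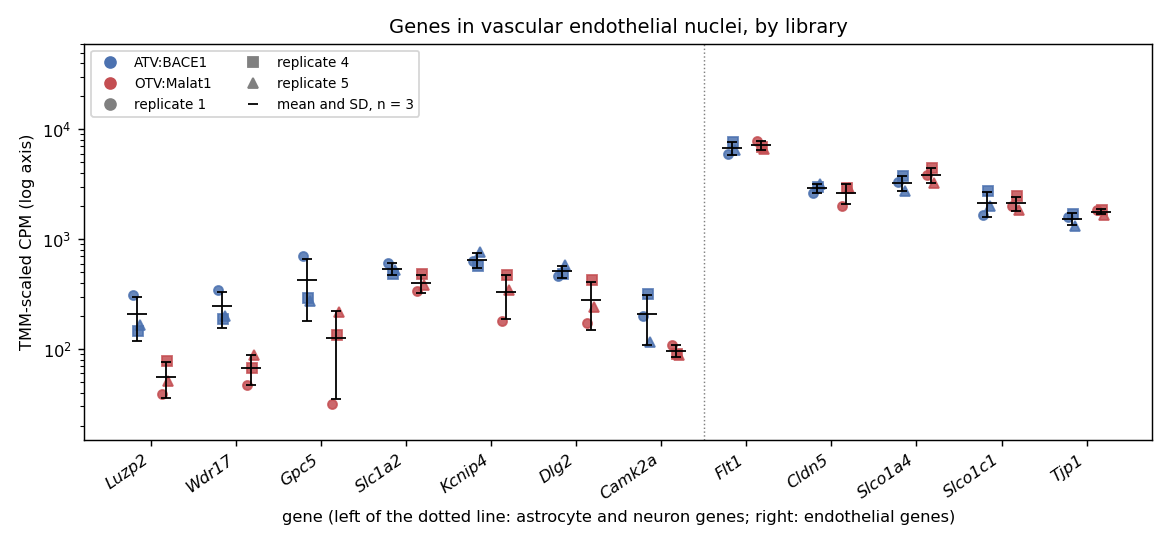
TMM-scaled CPM (log axis) of 7 astrocyte and neuron genes and 5 endothelial genes in vascular endothelial nuclei, by library, with bars for the mean and SD. Luzp2, Wdr17 and Gpc5 are lower in OTV:Malat1 with ATV:BACE1 replicate 1 highest, while Flt1, Cldn5, Slco1a4, Slco1c1 and Tjp1 overlap.

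In the class named Pericytes 0 of 16 pericyte and smooth muscle genes and 0 of 30 barrier genes passed either threshold, with median log2 changes of 0.10 and 0.03. Vtn, an adhesive protein that pericytes secrete, was at 3218, 2347 and 2734 CPM against 3264, 2603 and 2215. Of 20 interferon and nucleic acid sensing genes, which respond to foreign RNA and DNA, 2 were lower at an unadjusted p under 0.05 (all genes, 1.76%) and 0 higher (all genes, 1.86%). Among them was Oasl2 (118, 128 and 112 against 84.3, 51.7 and 51.5, without overlap, adjusted p 1.00). In leptomeningeal cells Oasl2 had the opposite sign, at 33.5, 26.6 and 44.5 against 77.3, 36.2 and 162 (log2 change 1.21, adjusted p 0.996), with overlap. Of 14 immediate-early genes in the class named Pericytes 12 had a positive log2 change and 1 was higher at an unadjusted p under 0.05 (all genes, 1.86%). Of 18 neuronal genes in the class named Pericytes 14 had a positive log2 change. Their median was 0.33, against 0.01 for all genes of that class. Called doublets made up 7.77%, 0% and 0% of its nuclei in the controls and 5.88%, 3.03% and 1.56% in OTV:Malat1. Values of this list without them are not given, and their part in it was not tested. Gimap6 (log2 change 1.10) and Pggt1b (1.19) were among the higher genes nearest to a call and Leng8 (-1.18) among the lower ones.

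Of 30 leptomeningeal fibroblast genes 1 was higher (all genes, 2.36%) and 1 lower (all genes, 2.1%) at an unadjusted p under 0.05, and the median was -0.01. The lower one was Cemip, a hyaluronan-binding protein involved in its breakdown, at 573, 811 and 1024 CPM against 478, 470 and 384 (log2 change -0.72, SE 0.179, adjusted p 0.996). All 3 OTV:Malat1 values were below the controls. The higher one was Igfbp5, a binding protein of insulin-like growth factors (154, 93.1 and 95.4 against 217, 248 and 80.9, log2 change 0.67). Cep250 (1.46), Tm9sf2 (0.85) and Syn3 (0.68) were the other higher genes nearest to a call, and Sorl1, a sorting receptor for the amyloid precursor, was lower (87.1, 113 and 69.9 against 41.0, 41.3 and 20.2, log2 change -1.22, SE 0.361, adjusted p 0.996).

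The class named Glia had the highest shares at an unadjusted p under 0.05 of the 7 classes, 4.34% higher and 3.3% lower. Its motile cilia genes, which ependymal cells use to move cerebrospinal fluid, shared a sign: all 40 measured had a positive log2 change, 25 were higher at an unadjusted p under 0.05 and 0 lower, and the median was 0.49 against 0.00 for all genes. None passed the adjusted threshold, and the lowest adjusted p was 0.220, for Cfap77, a ciliary tubule protein (89.3, 160 and 76.8 CPM against 221, 215 and 147, log2 change 0.91, SE 0.212). Dnah6, an axonemal dynein, was at 473, 632 and 387 against 749, 709 and 662 without overlap, and Tmem212 at 452, 571 and 278 against 770, 647 and 529 with overlap. The medians in the 3 pairs were 0.67, 0.17 and 0.45. The 7 ependymal markers took 0.233%, 0.342% and 0.185% of UMIs in the controls and 0.377%, 0.391% and 0.285% in OTV:Malat1. The sums per class do not separate a larger share of ependymal nuclei from more cilia RNA per nucleus, and this was not tested. Single libraries carried much of the count: without OTV:Malat1 replicate 1 it was 2 of 40 and the median 0.22, and without ATV:BACE1 replicate 5 it was 6 of 40 and the median 0.33. Under DESeq2 it was 16 of 40. In astrocytes 4 of 38 cilia genes were higher at an unadjusted p under 0.05 (all genes, 2.09%) and 0 lower (all genes, 1.74%), 32 had a positive log2 change, and the median was 0.30. That count was 1 of 38 without the block and under DESeq2, and 2 of 38 without ATV:BACE1 replicate 4 (median 0.21), 2 of 37 without OTV:Malat1 replicate 1 and 2 of 36 without OTV:Malat1 replicate 4. It was 6 of 37 without ATV:BACE1 replicate 1 (median 0.43) and without OTV:Malat1 replicate 5 (median 0.23). With a prediction score of at least 0.8, 20 of 32 were positive and the median was 0.20.

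Choroid plexus genes in the class named Glia had a median log2 change of -0.13, with 1 of 26 lower at an unadjusted p under 0.05 (all genes, 3.3%) and 0 higher (all genes, 4.34%). The sign of the median rested on single libraries: it was -0.37 without ATV:BACE1 replicate 1 (5 of 26 lower), 0.07 without ATV:BACE1 replicate 5 (0 lower) and 0.02 without OTV:Malat1 replicate 4 (1 lower), and without OTV:Malat1 replicate 1 it was -0.14 with 0 lower. The gene at an unadjusted p under 0.05 was Ttr, transthyretin, the carrier of thyroid hormone and retinol that the choroid plexus secretes, at 5163, 3347 and 3815 CPM against 2649, 3083 and 2548 (log2 change -0.56, SE 0.188, adjusted p 0.408). Ttr was lower at an unadjusted p under 0.05 in each of the 7 tested classes and in neurons, with log2 changes of -0.63 to -0.47, and called in none of them. In oligodendrocytes it was at 2252, 1064 and 1528 against 1021, 1286 and 993, and in neurons at 526, 256 and 374 against 254, 280 and 266, with ATV:BACE1 replicate 1 highest in every class. In the pair of replicate 4 Ttr was higher with OTV:Malat1 in oligodendrocytes, astrocytes and microglia (log2 ratios 0.27, 0.20 and 0.11). It was also higher there in neurons, and lower in the class named Glia. The classes come from the same libraries and are not independent. Neuronal genes in the class named Glia had a median of -0.36, with 6 of 20 lower at an unadjusted p under 0.05 (all genes, 3.3%) and 0 higher (all genes, 4.34%). Without OTV:Malat1 replicate 1 the median was -0.16 and 0 of 20 were lower, without OTV:Malat1 replicate 5 it was -0.51 and 10 were lower, and without ATV:BACE1 replicate 5 it was -0.33 and 2 were lower. The count was 3 of 20 without replicate 4 of either group and under DESeq2, and 1 of 20 without the block. Nuclei called as doublets made up 38.7%, 14.02% and 24.1% of the class in the controls and 17.7%, 22.0% and 20.4% in OTV:Malat1. Without them the neuronal median was 0.07 with 3 of 20 higher and 0 lower, the choroid median -0.36 with 3 of 26 lower and the cilia median 0.46, with 22 of 40 cilia genes higher at an unadjusted p under 0.05 and 38 positive. The genes nearest to a call were Gm47283, Saxo2, a protein of ciliary microtubules (60.0, 44.7 and 29.6 against 125, 107 and 98.3), and Ect2l among higher ones and the neuronal adhesion gene Cntn5 among lower ones (324, 377 and 455 against 146, 140 and 329), with an adjusted p of 0.118 each, followed by Cntn6 and Shisa9. Without called doublets Cntn5 was at -0.95 (unadjusted p 0.00272) and Shisa9 at -0.29 (unadjusted p 0.462).

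**Figure D4:**
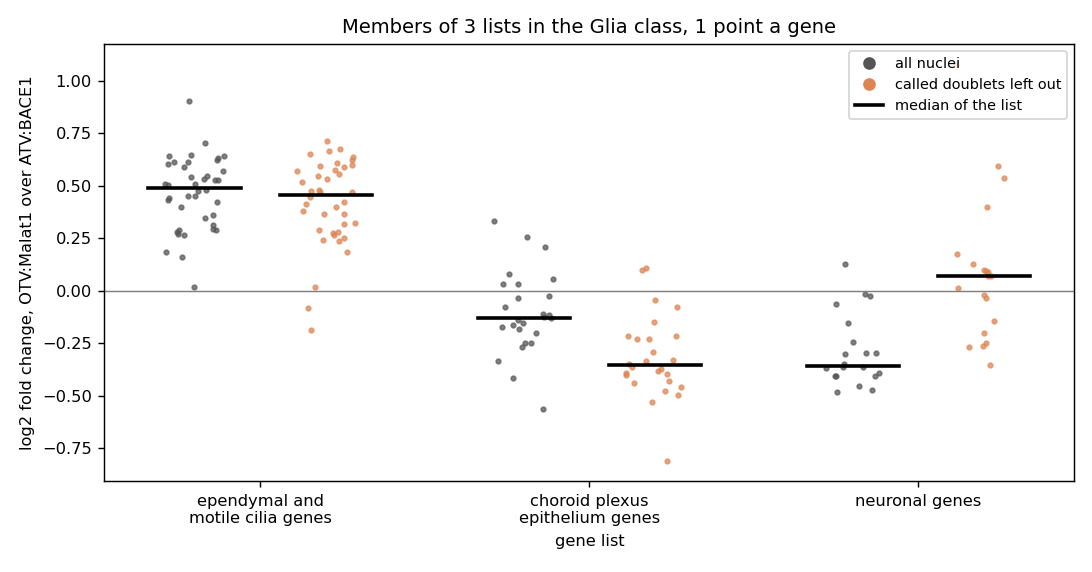
Log2 fold changes of single genes (points) in the class named Glia for 3 lists, with all nuclei and with called doublets left out; thick lines mark list medians. The cilia median is 0.49 and 0.46, the choroid plexus median -0.13 and -0.36, and the neuronal median -0.36 and 0.07.

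Genes tied to the mechanism of an ASO held no call. Of 16 neighbours of Malat1 on its chromosome tested in oligodendrocytes, 0 passed either threshold. In microglia 2 were tested, and Sipa1, a regulator of Rap GTPases, was at 90.5, 173 and 86.7 CPM against 299, 213 and 141, with overlap (log2 change 0.99, SE 0.368, adjusted p 0.996, unadjusted p 0.00963). In oligodendrocytes Neat1, the paraspeckle RNA beside Malat1, was at 1453, 1233 and 1540 CPM against 1251, 1333 and 1364 (log2 change -0.10, SE 0.0988). Its log2 change was between -0.10 and 0.25 in the 7 classes. Of 34 SR and hnRNP splicing factors in oligodendrocytes 0 passed either threshold, with a median of -0.01. Among 21 genes for RNase H and ASO-binding proteins 1 was higher at an unadjusted p under 0.05 (all genes, 1.8%), Ybx1, a cold shock protein that binds nucleic acids (67.1, 55.2 and 49.9 against 82.4, 70.2 and 80.7, without overlap, log2 change 0.42, adjusted p 1.00). Rnaseh1, the enzyme that cuts the target, had a log2 change of -0.12 (SE 0.267). Of 26 receptors and endosomal sorting genes 2 were lower at an unadjusted p under 0.05 (all genes, 1.55%), among them the recycling GTPase Rab11a (-0.33). Bace1, the protease that the control molecule is named for, was at 78.6, 87.6 and 85.2 CPM against 79.7, 65.7 and 75.0 in oligodendrocytes (log2 change -0.17, SE 0.135).

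Over 34 lists and 7 classes, 236 of 238 pairs had a member tested, and 1 pair, the glucocorticoid list in oligodendrocytes, held a call other than Malat1. That call was Sgk1, described above. Of 126 pairs of 18 gene families and a class 0 held a call. The families included solute carriers, ABC transporters, Rab GTPases, potassium channels and ribosomal proteins. With at least 10 members tested, family medians ran from -0.44 to 0.26. The lowest was that of glutamate and GABA receptor subunits in vascular endothelium (19 genes, 4 lower at an unadjusted p under 0.05, all genes 2.94%, and 0 higher, all genes 2.67%), and the highest that of the same family in the class named Pericytes (22 genes, 0 in either direction). Ribosomal proteins showed how the pairs can differ. In oligodendrocytes their median log2 ratio was -0.19, -0.12 and 0.51 in the pairs of replicates 1, 4 and 5.

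**Figure D5:**
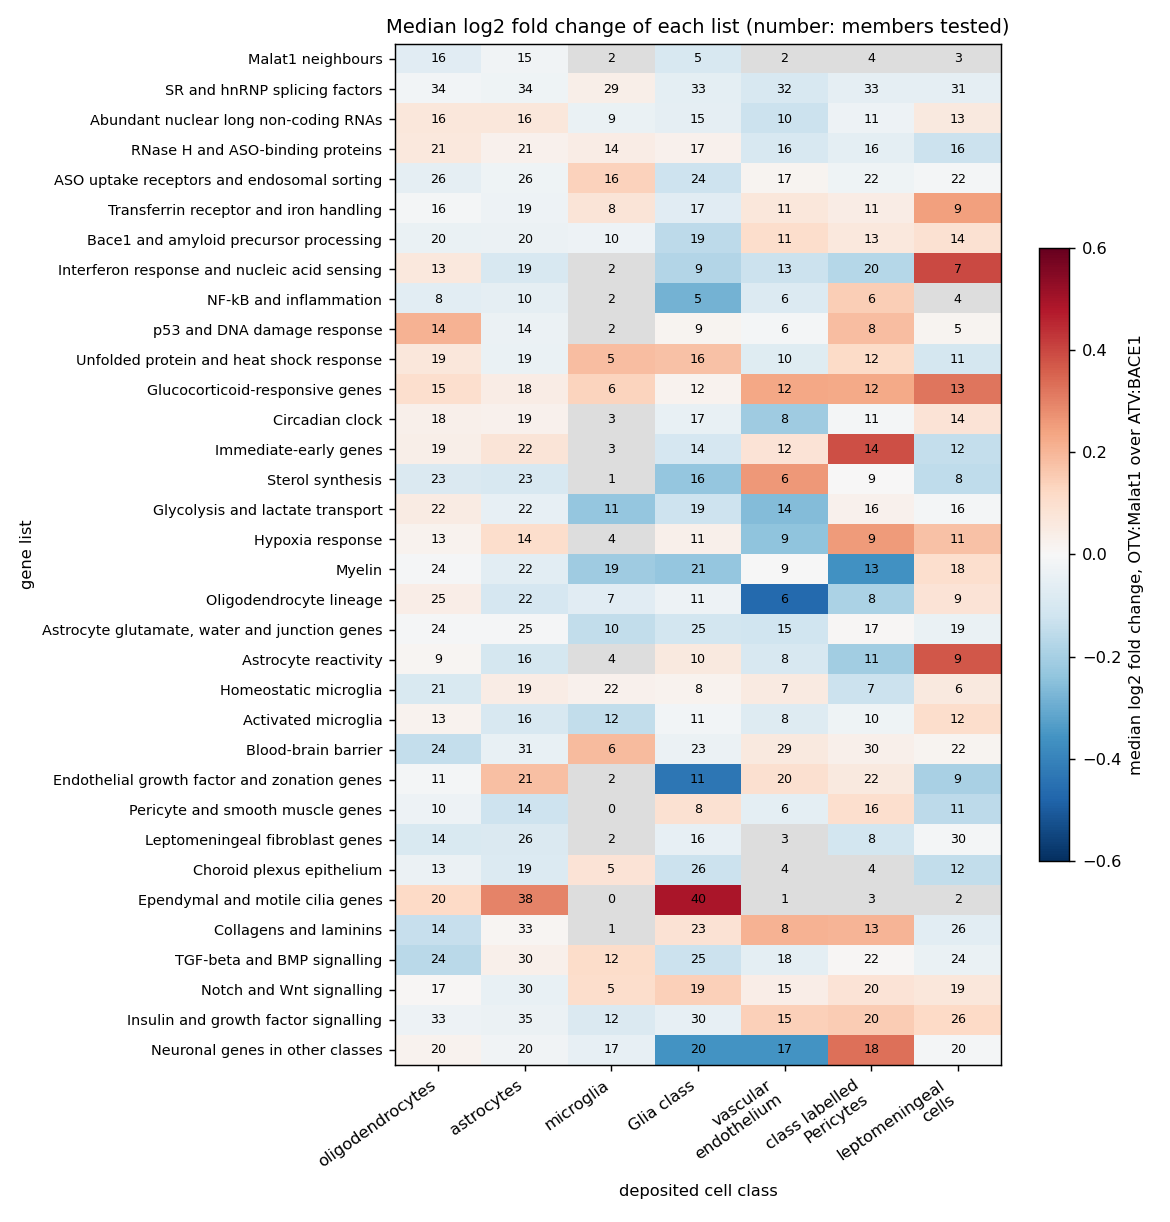
Median log2 fold change (colour) of 34 gene lists (rows) in 7 deposited classes (columns), with the number of members tested in each cell; grey cells have under 5. The cilia list in the class named Glia has the highest median, 0.49.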

How the data were processed

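Single-nucleus RNA was counted with Cell Ranger 5.0.0 and handled in Seurat 4 on mm10, per the submitters' processing notes; the sources used here do not give strand use or the filters on nuclei. The authors deposited a matrix of raw UMI counts for 25938 gene symbols and 110304 nuclei. Its sums were equal to the deposited total of each nucleus. The metadata deposited by the authors give the mitochondrial percent, a class name, a prediction score (a fraction from 0 to 1), a doublet call and a batch number. Batch numbers matched replicate numbers, which is where the pairing comes from: same-number libraries of the 2 groups had residual correlations of 0.0409 to 0.409 over genes, above those of libraries with different numbers in each tested class except vascular endothelium, where the highest of the latter was 0.112 and pairs 1 and 5 had 0.0409 and 0.0718. Counts were summed per library and class, in classes with at least 20 nuclei in a library. They were tested with edgeR 4.0.16 in R 4.3.3 (TMM, filterByExpr, glmQLFit and glmQLFTest) with group and batch as terms, over all 11 libraries of the 4 groups, at a Benjamini-Hochberg adjusted p of 0.05 within a class. Called doublets were kept. Perivascular macrophages and the class named vascular smooth muscle had too few nuclei; with at least 10 nuclei, smooth muscle gave 0 calls in 766 genes and 29 at an unadjusted p under 0.05. Alternatives were DESeq2 1.42.0, no block, 6 libraries, total counts, Malat1 left out of library sizes, no low-count filter, a legacy robust fit, each library left out, nuclei under 1000 UMIs or called doublets left out, and a prediction score of at least 0.8. DESeq2 without the block and list values without doublets were added after seeing the data. Python 3.11.15 with scipy 1.17.1 served for tables and permutation tests. The fits were tested on simulated data.

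The comparison, the lists and the families were chosen with earlier results of these data known, so counts over lists are descriptions. Named genes were every gene called, in each class the 3 higher and 3 lower genes with the smallest p among those with a mean of at least 10 UMIs and 1 direction in all 3 pairs, up to 3 members of a list at an unadjusted p under 0.05 or, with none, its most abundant members, and Malat1. Genes named beyond the rule, such as Neat1, Tfrc, Bace1, Rnaseh1, Nr3c1, Nr3c2, Flt1, Tjp1, Dnah6, Tmem212 and, in vascular endothelium, Gpc5 and Slc1a2, were chosen after values were seen. Some genes that the rule names are not reported here.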

Additional observations from a re-analysis of the deposited data

Results flagged for a closer look

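Of the genes called in 1 class, 3 had log2 changes of the other sign in another class in all 3 batch pairs, and none of these differences between classes was tested. Sgk1 was higher in oligodendrocytes, and in the class named Glia its log2 change was -0.14, lower in 3 of 3 pairs. Asic2 was lower in microglia and had a log2 change of 0.66 in the class named Pericytes. Luzp2 was lower in vascular endothelium and had log2 changes of 0.22 in oligodendrocytes and 0.77 in the class named Pericytes. None of these other-class values passed the adjusted threshold. The Asic2 and Luzp2 calls themselves were lost with called doublets left out. How many such opposite signs would arise without any difference was not tested.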

How the results depend on the processing

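Malat1 kept its direction in the 7 classes under every alternative run, and its log2 change ranged from -2.54 to -2.03 in oligodendrocytes, -2.05 to -1.72 in vascular endothelium, -1.69 to -1.42 in astrocytes and -1.10 to -0.86 in microglia. In astrocytes the call was lost without the replicate block (-1.56, adjusted p 0.368) and with the 6 libraries alone (-1.55, adjusted p 0.373). In the class named Pericytes it was lost without the replicate block (-0.81, adjusted p 0.0897), and leaving out 1 library gave -0.94 to -0.66, with the call lost without replicate 4 of ATV:BACE1 (-0.76) or OTV:Malat1 (-0.66). With no filter on low counts, calls were gained in the class named Glia (-0.49, adjusted p 0.00392) and leptomeningeal cells (-0.35, adjusted p 9.92e-05). Calls over the classes, 9 in all and 4 other than Malat1, were 4 and 1 with no replicate block, 29 and 25 with the 6 libraries alone, 54 and 47 with no low-count filter, and 5 and 0 under DESeq2 with or without the block. Without called doublets there were 2 calls other than Malat1: Sgk1, the 1 of the 4 that was kept, and Cemip2, a call that the full set of nuclei did not give. Leaving out 1 library gave 8 to 32 calls and 3 to 27 other than Malat1. There were 32 without either Malat1 ASO library, 28 without OTV:Malat1 replicate 5, 26 without ATV:BACE1 replicate 5, and 8 other than Malat1 without OTV:Malat1 replicate 4. The cause was not tested. The 4 genes kept their direction in 90 of 90 gene and setting pairs and their call in 60. They were chosen by the main fit and the settings reuse its libraries, so a kept direction is no separate evidence. The 90 pairs hold no value for Luzp2 or Wdr17 in vascular endothelium with a prediction score of at least 0.8. Nuclei per class gave 0 calls, and 2 without OTV:Malat1 replicate 5 (leave-one-out range 0 to 2). Classes with few UMIs, microglia and vascular endothelium above all, had the largest median SE (0.358 and 0.375 on the log2 scale, against 0.204 in oligodendrocytes).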
